A study of Mus musculus with 47 samples.

Results

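JAK kinases, STAT factors and the genes that feed back on them were followed through the leukaemic spleens of 47 mice, with 1 array per mouse. The 10 genes were the kinases Jak1 and Jak2, the transcription factors Stat3, Stat5a and Stat5b, and the targets Socs1, Socs2, Socs3, Cish and Pim1. They were picked by name from 18193 genes that had a probe set of their own, and each was read from its probe set with the highest mean over the arrays. All 10 passed the filter on dim genes, which kept 18178 genes with a value above log2 5 on at least 9 arrays.

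All mice carried the same 3 kinds of allele. These were a Cre transgene driven by ACTB, Tg(ACTB-cre)2Mrt, a Sleeping Beauty transposase allele in the Rosa26 locus, Gt(ROSA)26Sortm2(sb11)Njen, and a transposon array. The transposon array was TgTn(sb-T2/Onc2)6113Njen in 21 mice (line 6113) and TgTn(sb-T2/Onc2)6070Njen in 26 mice (line 6070). The diagnosis label was the same for all mice, a terminal myeloid leukaemia called undifferentiated. The tumours of 26 mice were labelled with a transposon insertion in Erg, which encodes an ETS transcription factor, and those of 21 mice were labelled with none. The label with an insertion went with line 6113 in 9 mice and line 6070 in 17, and the label without one went with line 6113 in 12 and line 6070 in 9. The sex label was female for 25 mice and male for 22, and the age label ran from 32 to 97 in a unit that was not given. No mouse without transposition was among the samples, so no level could be set against a healthy spleen. Whole spleen tissue was used, and in such tissue fewer cells of a type and less RNA per cell cannot be told apart. The sex label did not match Xist, the transcript of the inactive X chromosome, on 24 of the 47 arrays and matched it on 23. Xist above log2 7 was read as female, and no transcript of the Y chromosome was used. Whether the labels for Erg, line and age stand on their own arrays was not tested, and every comparison by label below carries this limit. The relations between genes over all 47 arrays do not use the labels.

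Cytokine receptors without an enzyme of their own bind Janus kinases such as Jak1 and Jak2, which become active when a cytokine joins the receptor chains. The kinases then phosphorylate STAT proteins, which enter the nucleus and switch on target genes. Stat5a and Stat5b, encoded by neighbouring genes, act below the receptors for erythropoietin, thrombopoietin and several interleukins, and Stat3 acts below the interleukin 6 family and granulocyte colony-stimulating factor. Cish, Socs1, Socs2 and Socs3 encode SH2-domain proteins that damp the same receptors and kinases, and Pim1 encodes a serine and threonine kinase that favours survival. The activity of the kinases and STATs lies in phosphorylation, which an RNA array does not measure.

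The STAT dimer site most often described reads TTCNNNGAA, the same on both strands. It was looked for in the RefSeq promoter windows of build GRCm38.p6, which run from 250 bases before to 50 bases after an annotated transcript start. Windows were found for 9 of the 10 genes, and 2 of these genes held a match, against 8.57% of 14441 tested genes with a window. Some genes have more than 1 window, and of all 32851 windows 8.30% held a match. Both stretches are shown because the genes are targets whose levels are described below, with the matches in capitals, 5′ to 3′ along the gene's strand. The Cish stretch, chr9:107296619-107296678 on the plus strand, ends 20 bases past the start and holds 2 matches in tandem, at positions 1 to 9 and 12 to 20 counted from the start. Windows with 2 or more matches made up 0.457% of all. The Socs3 stretch, chr11:117969492-117969560 on the minus strand, holds 1 match at positions -154 to -146.
Cish: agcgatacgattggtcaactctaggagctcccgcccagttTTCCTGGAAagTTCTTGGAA
Socs3: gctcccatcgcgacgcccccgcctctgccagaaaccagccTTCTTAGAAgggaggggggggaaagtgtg
These letters were not in the windows of Jak1, Jak2, Stat3, Stat5a, Stat5b, Socs1 and Pim1. A match is a description of the sequence, and no binding was measured.

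The deposited values were log2 expression values normalised by the RMA method. The 25th percentile of all values was 5.08, so values near 5 lie at the floor of the arrays, where differences are compressed. Values of different genes come from different probes and were not ranked against each other. The levels of the 10 genes by Erg label are plotted here.

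**Figure D1:**
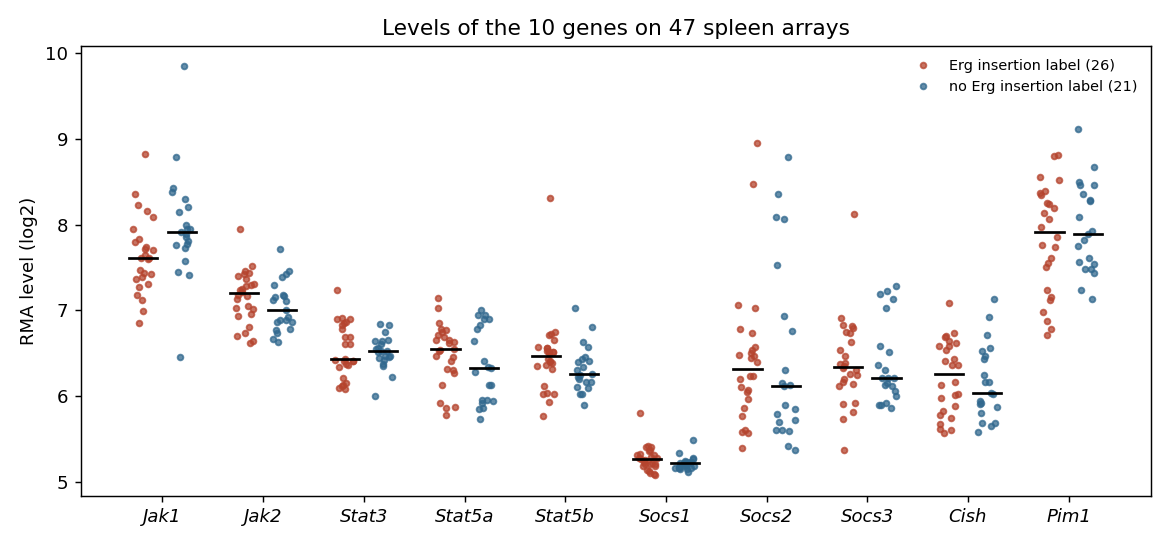
Log2 RMA level (vertical axis) of each of the 10 genes (horizontal axis), 1 point per array, for 26 arrays with the Erg insertion label (left of each pair) and 21 without it (right); black bars are medians. The groups overlap for every gene, Socs1 lies near the floor of the arrays, and Jak1, Stat5b and Socs3 each have 1 array far above the rest.

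Among the kinases, Jak1, which serves receptors of the interferons and of the interleukin 2 and 6 families, had a lowest, median and highest level of 6.46, 7.76 and 9.84, with the second highest array at 8.82. Jak2, the kinase of the erythropoietin and thrombopoietin receptors, ran narrower, at 6.62, 7.13 and 7.95. Among the STATs, Stat3 was at 6.01, 6.52 and 7.24 and Stat5a at 5.73, 6.47 and 7.14. Stat5b was at 5.77, 6.40 and 8.31, and its second highest array was at 7.03. Jak1 and Stat5b thus each owed much of their range to 1 array.

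Socs2, a regulator of growth hormone signalling, varied most of the 10 genes, with a lowest, median and highest level of 5.38, 6.20 and 8.95. Its SD over the arrays was 0.92 log2 units, larger than that of 99.3% of tested genes, whose median SD was 0.10. Socs3, the inhibitor of interleukin 6 type receptors, was at 5.37, 6.30 and 8.13. Cish, named for its induction by cytokines, was at 5.58, 6.17 and 7.14, and Pim1 was at 6.71, 7.89 and 9.11. Socs1, which inhibits JAK kinases directly, had a single probe set at 5.08, 5.23 and 5.80 with an SD of 0.12. Even its highest value lay within 1 log2 unit of the 25th percentile of all values, so its relations rest on small differences.

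The first question was whether the levels followed the labels. No gene of the 10 was called in the Erg comparison, which was fitted with limma over 18178 genes with line and sex as covariates (Benjamini-Hochberg adjusted p under 0.05). The background was also 0%, with 0 genes called and 666 under an unadjusted p of 0.05. Jak1 had the lowest unadjusted p of the 10. Its lowest, median and highest levels were 6.86, 7.61 and 8.82 with the Erg insertion label, against 6.46, 7.91 and 9.84 without it, so the groups overlapped over most of their range. The fitted difference was -0.32 ± 0.16 log2 units (SE; limma p = 0.05, adjusted p = 0.999). For the other genes the differences ran from -0.09 for Pim1 to 0.15 for Stat5b. The 95% interval was widest for Socs2, at -0.55 to 0.58. Since the sex label went against Xist on 24 arrays, 0 calls do not show that the Erg groups are alike.

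The other labels gave 0 calls among the 10 genes as well, with backgrounds of 0% for line, sex label, age and the interaction of Erg label and line. By limma the unadjusted p was under 0.05 for 540 genes by line, 460 by sex label, 688 by age and 1286 by the interaction. The differences of the 10 genes for line 6113 minus line 6070 ran from -0.12 log2 units for Stat5a to 0.22 ± 0.28 (SE) for Socs2. For mice labelled female minus those labelled male they ran from -0.11 for Jak1 to 0.19 for Pim1. Cish had the only unadjusted p under 0.05 among the 10 genes for age, with a slope of 0.0127 log2 units per unit of the age label (limma p = 0.00743, adjusted p = 1). None of the 10 genes had one for line, sex label or the interaction. By sex label no gene at all was called, Xist included, so these comparisons cannot show that the genes are alike between labels.

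The second question was how the genes varied together over the 47 arrays. Each gene in turn was used as the predictor of all tested genes in limma, and a pair was called where the adjusted p was under 0.05 in the fits of both genes. The larger of these p-values is given. Of 45 pairs, 7 were called. Between kinases or STATs and targets, 3 of 25 pairs were called, and 2 of these 3 correlations were negative. Among the targets 3 of 10 pairs were called, all positive, and among kinases and STATs 1 of 10. The median Pearson's r was 0.03 for the 25 pairs between the classes, 0.12 among targets and 0.10 among kinases and STATs. The background differs by gene, and so does the r needed for a call, since each fit was adjusted on its own. Jak2 and Socs2 were called at an r of -0.38, and Stat3 and Socs1 were not at 0.52. The counts of called pairs thus do not share 1 cutoff on r. Genes called higher and lower with the predictor were 16% and 10.5% of all genes for Jak2, 21.4% and 12.2% for Stat5a and 9.55% and 12.9% for Socs2. They were 5.52% and 6.87% for Socs3, 5.9% and 5.35% for Pim1, 2.12% and 0.627% for Cish and 1.61% and 0.446% for Socs1. For Jak1 they were 0% and 0%, for Stat3 0.022% and 0.022%, and for Stat5b 0.0275% and 0%. Without 1 array, mouse 22 of the Erg insertion group, which is described below, they were 3.15% and 3.48% for Socs3, 4.45% and 4.12% for Pim1 and 0.116% and 0.0165% for Socs1. For Jak2 and Stat5a, a call is thus common among all genes. The shares for Jak1 and Stat5b come from fits that include the 1 array far above the rest for each. By rank both had closer relations. Manea had a rho of 0.68 with Jak1 and Asb8 0.69 with Stat5b, and neither was called.

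**Figure D2:**
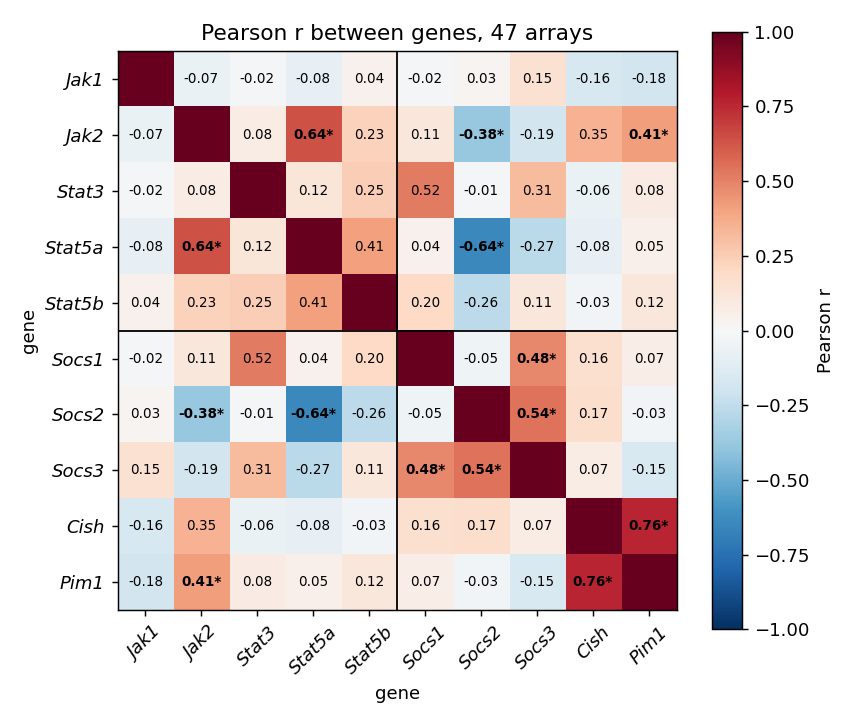
Pearson's r over 47 arrays for every pair of the 10 genes, on a colour scale from -1 (blue) to 1 (red); lines part kinases and STATs from targets. Bold values with an asterisk are the 7 called pairs, of which Cish and Pim1 have the highest r, 0.76.

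Cish and Pim1 were the most closely related pair. Pearson's r was 0.76 and Spearman's rho 0.79 over 47 arrays, each with a permutation p of 1e-05, the smallest that 100000 resamples can give (limma adjusted p = 2.25e-06). Of 18177 genes, Pim1 placed 2 by rho to Cish, and Cish placed 3 by rho to Pim1. The array with the highest Cish, at 7.14, had Pim1 at 8.67, and the array with the lowest Cish, at 5.58, had the lowest Pim1, at 6.71. The array with the highest Pim1, at 9.11, did not have the highest Cish. When the 2 arrays with the most extreme Cish were left out, r was 0.74. The pair was called among the 26 arrays with the Erg insertion label (r = 0.75, limma adjusted p = 0.0152) and among the 21 without it (r = 0.83, adjusted p = 0.00591), with the labels as given. Principal component 1, which held 35.7% of the variance of all tested genes, left r at 0.74 when it was a covariate. With the leading 3 components r was 0.58 (limma adjusted p = 0.013). The 3′ signal of control transcripts over their 5′ signal, a measure of RNA quality that ran from 0.65 to 2.96 log2 units, had a rho of 0.28 with Cish and 0.40 with Pim1. Its part in the relation was not tested.

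Over all arrays neither Cish nor Pim1 had a called relation with a STAT gene. Cish had an r of -0.08 with Stat5a, -0.03 with Stat5b and -0.06 with Stat3 (permutation p = 0.598, 0.859 and 0.669). Pim1 had an r of 0.05 with Stat5a, 0.12 with Stat5b and 0.08 with Stat3 (permutation p = 0.743, 0.445 and 0.576). With Jak2, Pim1 had an r of 0.41 and a rho of 0.39 (permutation p = 0.00359 and 0.00671, limma adjusted p = 0.0355), and this pair was called. It lost the call when any 1 of 8 arrays was left out, with adjusted p up to 0.0897. It was also not called on ranks (rho = 0.39, adjusted p = 0.0696), with principal component 1 as a covariate (r = 0.20, adjusted p = 0.635) or with the leading 3 components (r = 0.08, adjusted p = 0.858). Jak2 and Pim1 were called among the arrays with the Erg insertion label (r = 0.58, limma adjusted p = 0.0329). Among those without it they were not (r = 0.23, adjusted p = 0.747). Cish and Jak2 had an r of 0.35 and were not called (adjusted p = 0.182). With principal component 1 as a covariate the relations of Stat5a with Cish (r = -0.46, limma adjusted p = 0.0303) and with Pim1 (r = -0.44, adjusted p = 0.0322) were negative and called. With the leading 3 components they were not.

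Stat5a and Jak2 rose together, and each ran against Socs2. Jak2 and Stat5a had an r of 0.64 and a rho of 0.66 (permutation p = 2e-05 and 1e-05, limma adjusted p = 2.16e-05). Stat5a and Socs2 had an r of -0.64 and a rho of -0.59 (permutation p = 2e-05 for each, limma adjusted p = 5.74e-05). Jak2 and Socs2 had an r of -0.38 and a rho of -0.27 (permutation p = 0.00815 and 0.0684, limma adjusted p = 0.0372). The last pair lost its call when any 1 of 7 arrays was left out, with adjusted p up to 0.0861. When the 2 arrays most extreme in the gene named first were left out, r was 0.74 for Jak2 and Stat5a. It was -0.64 for Stat5a and Socs2 and -0.43 for Jak2 and Socs2. Jak2 and Socs2 were not called without the extremes of each predictor (limma adjusted p = 0.123) or on ranks (limma adjusted p = 0.158). Of all tested genes, 41.8% had a larger absolute rho to Jak2 than Socs2 had, and 38.1% a larger one to Socs2 than Jak2 had. For Stat5a and Socs2 these shares were 11.8% and 1.47%, and for Jak2 and Stat5a 4.42% and 5.80%.

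The 7 arrays with the highest Socs2, from 7.53 to 8.95, had Stat5a between 5.73 and 6.14, against a median of 6.47 over all arrays. The same 7 arrays had Vpreb1, a gene of B cell precursors that encodes part of their surrogate light chain, between 9.34 and 11.06. On 32 arrays Vpreb1 was between 5.18 and 6.71, and on 15 it was between 7.28 and 11.06. Because the arrays differ so much in this gene, the pairs were also fitted within these sets, a split made after the values were seen. Stat5a and Socs2 had an r of -0.25 in the 32 arrays and -0.34 in the 15. Jak2 and Stat5a had an r of 0.11 in the 32 and 0.64 in the 15. Jak2 and Socs2 had an r of 0.30 in the 32, the opposite sign, and -0.10 in the 15. None of these 6 values was called by limma. Jak2 and Pim1 had an r of 0.53 in the 32 arrays, which was called (limma adjusted p = 0.0255). In the 15 it was 0.60 and not called (adjusted p = 0.298). With 15 arrays, a missing call does not show that a relation is absent. Cish and Pim1 had an r of 0.82 in the 32 arrays, which was called (adjusted p = 0.000113), and 0.63 in the 15, which was not (adjusted p = 0.342).

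**Figure D3:**
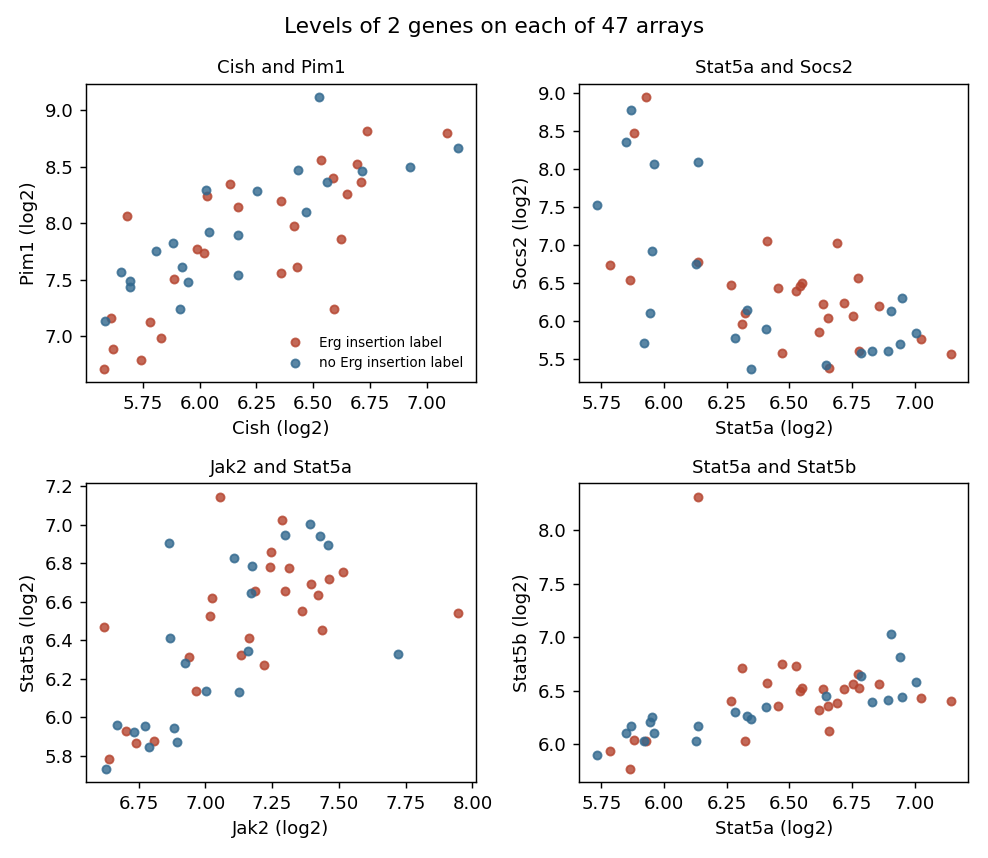
Log2 RMA levels of 2 genes on each of 47 arrays, for Cish and Pim1, Stat5a and Socs2, Jak2 and Stat5a, and Stat5a and Stat5b; red points have the Erg insertion label and blue points do not. High Socs2 goes with low Stat5a, and 1 array with Stat5b at 8.31 lies apart from an otherwise rising relation of Stat5a and Stat5b.

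Principal component 1 had an r of 0.76 with Jak2, 0.78 with Stat5a, -0.59 with Socs2 and -0.52 with Socs3, turned so that erythroid genes are high. With it as a covariate, r was 0.10 for Jak2 and Stat5a, -0.36 for Stat5a and Socs2 and 0.14 for Jak2 and Socs2, and none was called (limma adjusted p = 0.869, 0.18 and 0.799). With the leading 3 components r was 0.06 for Stat5a and Socs2.

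Among the targets, Socs2 and Socs3 had an r of 0.54 and a rho of 0.60 (permutation p = 0.00022 and 2e-05, limma adjusted p = 0.00541). Of 18177 genes, Socs2 placed 17 by rho to Socs3, and Socs3 placed 107 by rho to Socs2. Leaving out any 1 array kept r between 0.50 and 0.64 and the adjusted p at 0.0143 or less. The pair was not called with principal component 1 as a covariate (r = 0.34, limma adjusted p = 0.548) or with the leading 3 components (r = 0.52, adjusted p = 0.0933). It was not called among the arrays with the Erg insertion label (r = 0.38, adjusted p = 0.268) or without it (r = 0.72, adjusted p = 0.149). Nor was it called in the 32 and the 15 arrays split by Vpreb1 (r = 0.44 and 0.74, adjusted p = 0.269 and 0.888). Without the label and in the 15 arrays, r was above that over all arrays. A missing call in these smaller sets does not show that the relation is absent. Socs1 and Socs3 had an r of 0.48 but a rho of 0.24 (permutation p = 0.00179 and 0.108, limma adjusted p = 0.0311). Without 1 array, mouse 22 of the Erg insertion group, r was 0.21 (adjusted p = 0.711). The call also ended without mouse 3 of that group (r = 0.46, adjusted p = 0.053) or mouse 12 of the group without the insertion (r = 0.44, adjusted p = 0.0974).

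Stat5a and Stat5b had an r of 0.41 that was not called over all arrays (limma adjusted p = 0.441), but a rho of 0.68 (permutation p = 1e-05). Of 18177 genes, Stat5a placed 5 by rho to Stat5b, and Stat5b placed 659 by rho to Stat5a. Without 1 array, mouse 2 of the Erg insertion group, r was 0.74 (limma adjusted p = 2.32e-05). Without the same array Stat5b was also called with Jak2 (r = 0.42, adjusted p = 0.0431) and with Socs2 (r = -0.45, adjusted p = 0.0281). Stat3 had its highest r with Socs1, 0.52, which was not called (permutation p = 0.00027, limma adjusted p = 0.0885), and a rho of 0.34. Without mouse 6 of the Erg insertion group this pair was called (r = 0.55, adjusted p = 0.0351), and without mouse 22 of that group r was 0.36 (adjusted p = 0.468). Stat3 and Socs3 had an r of 0.31 and a rho of 0.13 (permutation p = 0.0324 and 0.374). Over all arrays Jak1 had no r beyond -0.18 or 0.15 with any of the other genes. Without the 2 arrays most extreme in Jak1, r was -0.36 with Stat5a and -0.24 with Jak2. Neither pair was called without the extremes of each predictor. Over all arrays their rho was -0.23 and -0.20 (permutation p = 0.126 and 0.169).

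The 3 arrays that stood apart were described one by one, chosen after their values were seen and without a test. Mouse 10 of the group without an Erg insertion, of line 6070, had Jak1 at 9.84, against a median of 7.75 and a next value of 8.82 on the other arrays. All 3 Jak1 probe sets were highest there, at 8.44, 8.58 and 9.84, against next values of 7.10, 7.77 and 8.82. Of 18178 genes, Jak1 placed 5 by its difference from the median of the other arrays, behind Smyd3 (8.81, against 5.53), Acot11 (8.64, against 5.52), Zmym4 (8.47, against 5.69) and Pptc7 (8.95, against 6.33). The targets were not at their highest there. Pim1 was at 7.44 and Cish at 5.69, places 38 and 40 of 47 from the top, and Socs3 at 6.21, Socs2 at 5.85 and Socs1 at 5.23 held places 28, 34 and 23.

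Mouse 2 of the Erg insertion group, of line 6113, had Stat5b at 8.31, against a median of 6.39 and a next value of 7.03. The second Stat5b probe set, which lay between 5.27 and 5.56 on all arrays, was at 5.49 there, place 8 of 47. The same array had Vpreb1 at 10.92, against a median of 5.44 on the other arrays, and the B cell precursor genes Igll1 and Vpreb3 at 9.80 and 9.26. Hsdl2 was at 9.40 on this array, against a highest value of 6.33 on any other. Stat5a was at 6.14, place 34 of 47. Xist was the gene farthest below, at 5.16, against a median of 8.925, although this mouse was labelled female.

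Mouse 22 of the Erg insertion group, of line 6070, held the highest Socs3, Socs1 and Stat3 together. Socs3 was at 8.13, against a next value of 7.28, Socs1 at 5.80, against 5.49, and Stat3 at 7.24, against 6.91. Another Socs3 probe set was also highest there, at 6.595, against a next value of 6.235. The remaining Socs3 probe set was at 6.80, place 2, below 6.82 on another array. Pim1 was at 6.79, place 46 of 47. The genes farthest above the other arrays there were T cell genes. Cd3d was at 10.02, against a median of 5.53, Notch1 at 10.31, against 6.00, and Bcl11b at 9.17, against 5.26. Cxcl9, a chemokine induced by interferon gamma, was at 9.28, against a highest value of 6.66 elsewhere. The 3 genes farthest below were Xist, at 5.21, against a median of 8.925, erythroid Car1, at 7.38, and platelet Pf4, at 6.29. This mouse was labelled female, so its sex label did not match Xist.

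Markers of blood cell types moved with several of the genes, and the part of cell types in the relations was not tested beyond the component and Vpreb1 fits above. Of 7 tested B cell markers, 7 were called lower with Jak2 and 7 lower with Stat5a, against 10.5% and 12.2% of all genes, and 6 were called higher with Socs2, against 9.55%. Vpreb1 had an r of -0.66 with Jak2, -0.80 with Stat5a and 0.71 with Socs2. Of 8 neutrophil markers, 7 were called lower with Stat5a and 6 higher with Socs2, with S100a8 at an r of -0.63 and 0.52. Of 8 monocyte and macrophage markers, 6 were called lower with Stat5a, 6 higher with Socs2 and 5 higher with Socs3, the last against 5.52%. Csf1r, the receptor of macrophage colony-stimulating factor, had an r of -0.70 with Stat5a, 0.59 with Socs2 and 0.52 with Socs3.

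Several erythroid markers ran the other way. Of 9 tested, 6 were called higher with Jak2, against 16% of all genes. With Socs2 5 were called lower, against 12.9%, and with Socs3 4, against 6.87%. With Stat5a 5 were called higher, against 21.4%, and 1, Slc4a1, lower, against 12.2%. Klf1, the erythroid transcription factor, had an r of 0.57 with Jak2, 0.54 with Stat5a, -0.46 with Socs2 and -0.41 with Socs3. Pim1 had 4 of the 9 called higher, against 5.9% of all genes, and Cish 2, against 2.12%. Rhag had an r of 0.52 with Pim1 and 0.49 with Cish. Of 6 megakaryocyte and platelet markers, Pf4 and Itga2b were called higher with both Cish (r = 0.73 and 0.70) and Pim1 (r = 0.69 and 0.81), and 4 others were called lower with Stat5a and higher with Socs2. Without mouse 22 of the Erg insertion group, 1 of the 9 erythroid markers was called lower with Socs3, which was not Klf1 (r = -0.34, limma adjusted p = 0.123), and 2 were called higher with Pim1.

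Of 7 T and NK cell markers, 6 were called higher with Socs1 and 5 lower with Pim1, against 1.61% and 5.35% of all genes. Cd3e, a chain of the T cell receptor complex, had an r of 0.51 but a rho of 0.11 with Socs1, and an r of -0.51 and a rho of -0.32 with Pim1. The mean of the list had a rho of 0.22 with Socs1 and -0.24 with Pim1. Without mouse 22 of the Erg insertion group, the array with the highest Socs1 and the second lowest Pim1, 0 of the 7 were called with Socs1 and 4 lower with Pim1. Cd3e then had an r of 0.33 with Socs1 (limma adjusted p = 0.409) and -0.45 with Pim1 (adjusted p = 0.0267).

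Interferon-stimulated genes were called with Cish and Pim1. Of 10 tested, 5 were called higher with Cish, against 2.12% of all genes, and 7 higher with Pim1, against 5.9%, with none lower. The median r of the list was 0.45 with Cish and 0.40 with Pim1, against -0.0017 and 0.036 over all genes. Ifit1 had an r of 0.53 with Cish and 0.54 with Pim1, Irf7 0.48 and 0.46, and Ifit3 0.51 and 0.47. Of 9 cell cycle genes, Mki67 and Ccna2 were called higher and Bub1b lower with Jak2, against 16% and 10.5% of all genes. Plk1 was called higher with Stat5a, against 21.4%, and Cdk1 lower with Socs1, against 0.446%. The counts for Jak2 and Stat5a lie near or below these shares. With each of the other 7 genes 0 of the 9 were called, and without mouse 22 of the Erg insertion group 0 were called with Socs1.

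**Figure D4:**
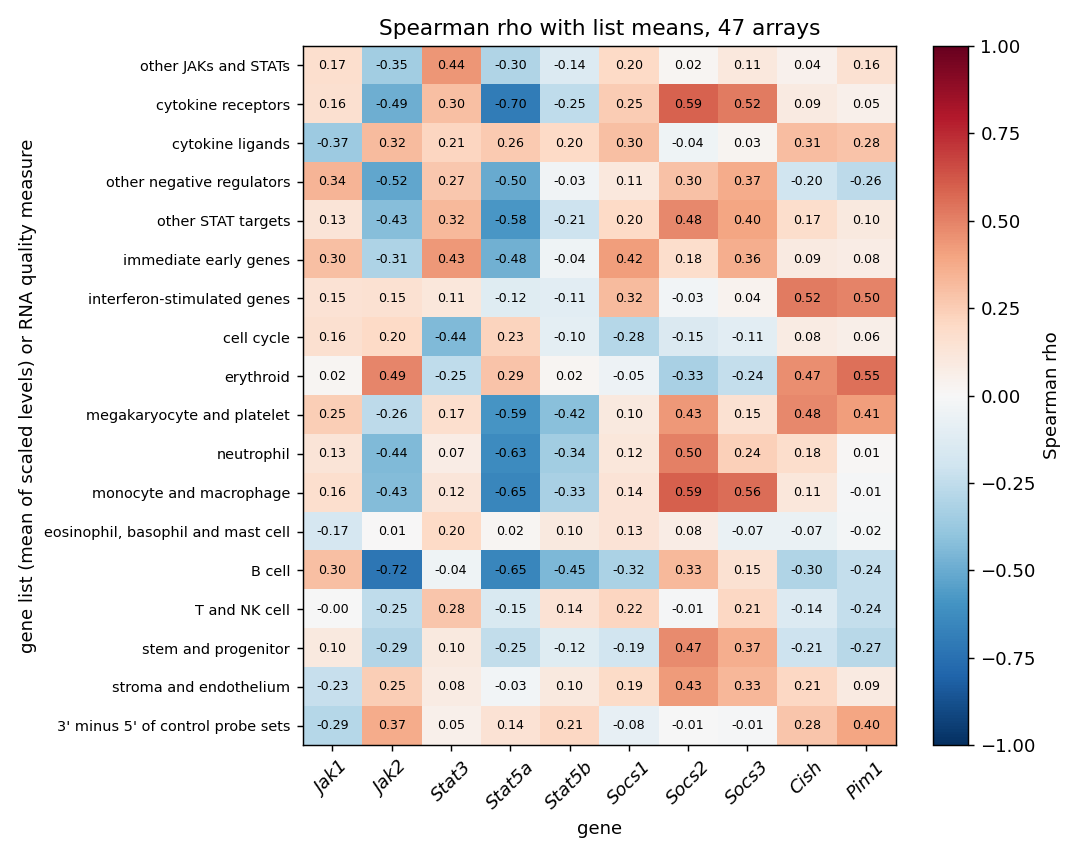
Spearman's rho over 47 arrays between each of the 10 genes (horizontal axis) and the mean scaled level of each gene list, with the RNA quality measure in the last row (vertical axis), from -1 (blue) to 1 (red). Jak2 and Stat5a are negative with the B cell list (-0.72 and -0.65), and Cish and Pim1 are positive with the interferon-stimulated list (0.52 and 0.50).

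Other genes of the pathway were called with Stat5a and Socs2 in opposite directions. Of 27 tested cytokine receptors, 11 were called lower and 3 higher with Stat5a, against 12.2% and 21.4% of all genes, and 10 higher and 2 lower with Socs2, against 9.55% and 12.9%. Epor, the erythropoietin receptor, had an r of 0.64 with Jak2, 0.53 with Stat5a, 0.51 with Pim1, -0.50 with Socs2 and -0.45 with Socs3, all called. Without mouse 22 of the Erg insertion group the last was not (r = -0.38, limma adjusted p = 0.0793). Il7r, the interleukin 7 receptor chain of lymphoid precursors, had an r of -0.79 with Stat5a, -0.74 with Jak2 and 0.65 with Socs2. Csf2rb, the shared chain of the interleukin 3 and granulocyte-macrophage colony-stimulating factor receptors, ran from 6.20 to 8.99. Of the 30 listed receptors 9 had a mean above log2 6, and among these Csf2rb had the highest median rho to the 5 targets, 0.35, followed by Ifnar2 (0.21), while Il7r had the lowest (-0.10). Il6st, the gp130 chain shared by the interleukin 6 family, had an r of 0.59 with Socs3 and 0.43 with Socs2, and Osmr, the oncostatin M receptor chain, 0.53 and 0.61.

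Of 17 tested cytokine ligands, 3 were called higher with Jak2, against 16% of all genes, and 2 with Stat5a, against 21.4%. With Socs1 there were 3 (Csf2, Il10 and Ifng), against 1.61%, and with Socs3 3 (Il10, Lif and Ifng), against 5.52%. Without mouse 22 of the Erg insertion group 0 and 1 of these were called. With Pim1 there were 2 (Il6 and Osm), against 5.9%, with Cish 1 (Osm), against 2.12%, and with Socs2 1 (Lif), against 9.55%. None was called lower with any of the 10 genes, and 0 were called with Jak1, Stat3 or Stat5b. Osm, which encodes oncostatin M, had an r of 0.54 with Cish, 0.52 with Pim1 and 0.44 with Jak2. None of the 17 ligands had a mean above log2 6, so these calls rest on dim genes. Among the 5 other JAKs and STATs tested, only Tyk2 was called higher with Jak2 (r = 0.57) and Stat5a (r = 0.53). The shares of all genes were 16% and 21.4%, and these counts lie near them. With Socs2, Tyk2 was called lower (r = -0.42), against 12.9%, and Stat4 higher, against 9.55%. Stat4 and Stat6 were called lower with Jak2 and Stat5a, against 10.5% and 12.2%, and higher with Socs3, against 5.52%. With Socs3 neither was called without mouse 22 of the Erg insertion group.

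Of 17 other negative regulators, 7 were called lower and 1 higher with Jak2, against 10.5% and 16% of all genes, and 6 lower with Stat5a, against 12.2%. The 1 that was higher, Ptpn11, which encodes the phosphatase SHP2, had an r of 0.65 with Jak2, 0.57 with Cish and 0.57 with Pim1. The phosphatase gene Ptpn1 was called higher with Socs1 (r = 0.53, rho = 0.23) and Socs3 (r = 0.48, rho = 0.33). Without mouse 22 of the Erg insertion group neither was called (r = 0.29 and 0.30, limma adjusted p = 0.492 and 0.182). By median rho to the 5 targets, Cbl (0.25) and Ptpn1 (0.23) were the highest of the 11 regulators with a mean above log2 6 and Socs7 (-0.20) the lowest. Of 18 other STAT targets, 8 were called lower and 2 higher with Stat5a, against 12.2% and 21.4% of all genes. Bcl2l1, which encodes the survival protein BCL-XL, was among those lower with Stat5a (r = -0.46) and was called higher with Cish (r = 0.60) and Pim1 (r = 0.59). Ccnd3, a D-type cyclin gene, was called higher with Cish (r = 0.52) and Pim1 (r = 0.57). Bcl2l1 (0.32) and Mcl1 (0.31), another survival gene, had the highest median rho to the 5 targets among the 8 of this list with a mean above log2 6, and Myc (-0.19) the lowest.

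The genes most like each of the 10 were taken by Spearman's rho over the 47 arrays among 5403 genes with a mean above log2 6. Tmbim1 (0.80), Treml2 (0.75) and Pf4 (0.74) were nearest to Cish, and Ikzf1, which encodes the transcription factor Ikaros, was farthest (-0.71). Rit1 (0.80), Itga2b (0.80) and Tmbim1 (0.74) were nearest to Pim1, so Tmbim1 was near to both. Ptger3 (0.89), Scamp1 (0.86) and Adcy6 (0.86) were nearest to Jak2, and Usp47 (0.87), Def6 (0.87) and Ash2l (0.86) to Stat5a. Fndc3b (0.76), Rasa3 (0.74) and Sash1 (0.73) were nearest to Socs2. Epas1 (0.65), Frmd4b (0.64) and Il6st (0.63) were nearest to Socs3. Fyb (0.66), Prkcq (0.58) and Rnf166 (0.56) were nearest to Socs1. For Jak1 the nearest were Manea (0.68), Nrd1 (0.62) and Csnk1g3 (0.59), for Stat3 Myo9b (0.58), Ddx6 (0.55) and Cytip (0.54), and for Stat5b Asb8 (0.69), Eef2 (0.68) and Eif3k (0.67). Of these 9 genes Cytip alone was called by limma (adjusted p = 0.0324). The farthest genes were Mcu for Jak1 (-0.55), Tbc1d10c for Jak2 (-0.83), Josd2 for Stat3 (-0.64), Ccdc50 for Stat5a (-0.83) and Tifa for Stat5b (-0.64). Among the targets they were Tcea1 for Socs1 (-0.62), Ndufv1 for Socs2 (-0.70), Mogs for Socs3 (-0.64) and Pdha1 for Pim1 (-0.73). Of the 318 genes called higher with Cish that had a promoter window, 11.3% held the letters TTCNNNGAA, against 8.57% of 14441 tested genes with a window. Of the 898 such genes for Pim1, 7.91% held them.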

How the data were processed

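RNA of 47 spleens, each from another mouse, was hybridised to Affymetrix whole-genome mouse arrays. The authors deposited log2 levels from RMA, and the submitters' processing notes name affy and R 2.15. RMA removes background, brings the arrays to 1 distribution by quantiles and gives 1 value per probe set. Of 45101 probe sets, 34945 named 1 gene, 932 several and 9160 were unnamed here, by the platform annotation. Array medians ran from 5.19 to 5.24, and array pairs correlated at 0.903 to 0.991. The number of mice limits the precision.

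From these values, label comparisons and relations were fitted with limma 3.58.1 in R 4.3.3 (lmFit, eBayes), adjusted over all 18178 tested genes. Permutations used 100000 two-sided resamples in Python 3.11.15 with numpy 2.4.6. The fits were tested on simulated data. The 10 genes and the gene lists were chosen with earlier results of these data known. Named genes are the 10 themselves, for each the 3 nearest and the 1 farthest gene by rho, and for each pathway list the 2 with the highest and the 1 with the lowest median rho to the 5 targets, all among genes with a mean above log2 6. The cytokine ligand list had no gene above that mean. Cell type markers were named where their list is described. Other pathway genes, the interferon-stimulated genes and the genes of the 3 arrays that stood apart were chosen after their values were seen. Alternatives changed the probe set, filter, covariates, arrays and measure of relation. Scanner files were not used here.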

Additional observations from a re-analysis of the deposited data

Results flagged for a closer look

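The 2 labelled groups of 9 arrays, of the Erg insertion label in line 6113 and of no Erg insertion in line 6070, were searched for single values apart from the rest. Over 20 sets of values, of which chance sets apart about 1 in 20, 4 values stood apart by Dixon's test at the 95% level. In the Erg insertion group of line 6113, Stat5b was at 8.31 on 1 array, with the nearest value at 6.56. In the same group Socs2 was at 8.48 on another array, with the nearest at 6.78. In line 6070 without the insertion, Socs2 was at 8.79 on 1 array, with the nearest at 6.76, and Stat3 was at 6.01, below a nearest value of 6.36. Both arrays with high Socs2 were also high in Vpreb1, at 9.74 and 10.62.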

How the results depend on the processing

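The label comparisons called none of the 10 genes under the alternatives run, with the limit that the sex label went against Xist on 24 arrays. The relations depended more on the choices. With principal component 1 as a covariate, 0 of 10 kinase and STAT pairs and 1 of 10 target pairs were called, and with the leading 3 components 0, 0 of 25 pairs between the classes and 1 target pair. Jak2 and Socs2 changed sign under these covariates, to 0.14 and 0.23, and Stat5a and Socs2 changed sign with 3 components, to 0.057. Among arrays with the Erg insertion label alone 1 target pair was called. Without the label, 2 kinase and STAT pairs, 1 pair between the classes and 1 target pair were called. On ranks, 2 kinase and STAT pairs and 1 pair between the classes were called, and 1 between the classes without the 2 farthest arrays. In alternatives added after seeing the data, the 32 arrays with low Vpreb1 gave 0 kinase and STAT pairs, 1 between the classes and 2 target pairs. The 1 between the classes was Jak2 and Pim1, at an r of 0.53. Jak2 and Socs2 were at 0.30 there and not called. The 15 others gave 0 in each class. Leaving out 1 array at a time gave 1 to 3 kinase and STAT pairs, with 3 only without mouse 2 of the Erg insertion group, 1 to 4 pairs between the classes, with 1 only without mouse 5 of that group, and 2 to 3 target pairs. Cish and Pim1 stayed called under every alternative except among those 15 arrays. Under the filter at log2 6 Socs1 was not tested, so its pairs gave no value. No paired analysis was possible because replicate numbers only name the mice and each mouse has 1 array.

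Dim genes, Socs1 above all, lie near the floor of the arrays, where differences are compressed. Relations between genes over whole spleens do not show which cells carried the RNA, and phosphorylation was not measured. No scanner files were used, so the RMA values were taken as they are.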
